A study of Mus musculus with 3 samples.

Results

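10 genes of the transforming growth factor beta (TGF-beta) family were followed through the cell types of the adult mouse olfactory bulb: the ligand genes Inhba, Inhbb, Mstn and Bmp3, the antagonist genes Fst and Grem1, and the receptor genes Acvr1c, Bmpr1b, Acvr2a and Bmpr2. They are 10 of the 31055 genes of the count matrices. All 10 were found by symbol, and they were chosen with their levels in these nuclei known. Their patterns are therefore given as a description, with no test.

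Nuclei came from the olfactory bulb of 3 adult C57Bl/6 mice that form 1 group (OBseq). Each mouse had received a retroAAV-CAG-H2B-GFP virus, which travels back along axons and carries a nuclear green fluorescent protein, in the piriform cortex (PCx) and the anterior olfactory nucleus (AON). Sorted fluorescent nuclei gave 1 droplet library of unique molecular identifiers (UMIs) per mouse, and all mice carried the virus, so no untreated group was compared. Dissection and sorting took whatever cells held the protein: of 31703 retained nuclei, 7504 (23.7%) were in 5 clusters that carried projection neuron markers and 20189 (63.7%) in 9 clusters that carried inhibitory neuron markers.

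The authors' 22 clusters (0 to 21) and 10 subclusters of projection neurons carry no names in the deposited table. They are called "-like" here from marker lists without any of the 10 genes: mitral M1, M2 and M3, tufted T1, and external tufted ET1, ET2 and ET4 among the subclusters. Mice 1, 2 and 3 gave 5845, 21105 and 4753 nuclei with 58526996, 213891496 and 62929479 UMIs and medians of 7940, 8420 and 10568 UMIs per nucleus. Mice 1 and 2 shared 39 barcodes, mice 1 and 3 shared 8, and mice 2 and 3 shared 35. Mouse 1 had 14 M1-like nuclei, against 465 and 207 in the others. A level is the UMIs of a gene per 1000000 UMIs (CPM) of all nuclei of 1 mouse in 1 cluster, listed for mice 1, 2 and 3 in that order. Means have the SD over mice (n = 3).

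Ligands of the family are secreted dimers that bind a complex of type II and type I receptors, which are kinases of the cell surface. The type I receptor then phosphorylates Smad proteins, which enter the nucleus and bind DNA. Activins, TGF-beta and myostatin act mainly through one branch of Smads and bone morphogenetic proteins (BMPs) through another, and secreted antagonists hold ligands away from their receptors. In the olfactory bulb, mitral and tufted cells pass odour signals to the cortex, and granule and periglomerular cells inhibit them.

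A gene was counted as led by a cluster where its mean level was at least 2 times that of the next cluster and its lowest library lay above the highest library of every other cluster. By that rule 4 of the 9 genes tested were led by a cluster: Grem1 by cluster 7, Inhba by cluster 10, Bmp3 by cluster 12 and Acvr2a by cluster 4. Of all genes with a mean of at least 1 CPM, 9.65% were led by a cluster. Cluster 4 led 0.308% of all genes tested, cluster 7 0.216%, cluster 10 0.21% and cluster 12 0.0863%. Since the members were chosen for such patterns, nothing is read from the differences. Mstn was under 1 CPM on average and was not tested. Among subclusters 3 of 8 were led, Fst by M3-like and Inhbb and Acvr2a by ET4-like nuclei, where 4.7% of all genes were (1.41% by ET4-like and 0.424% by M3-like nuclei).

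**Figure D1:**
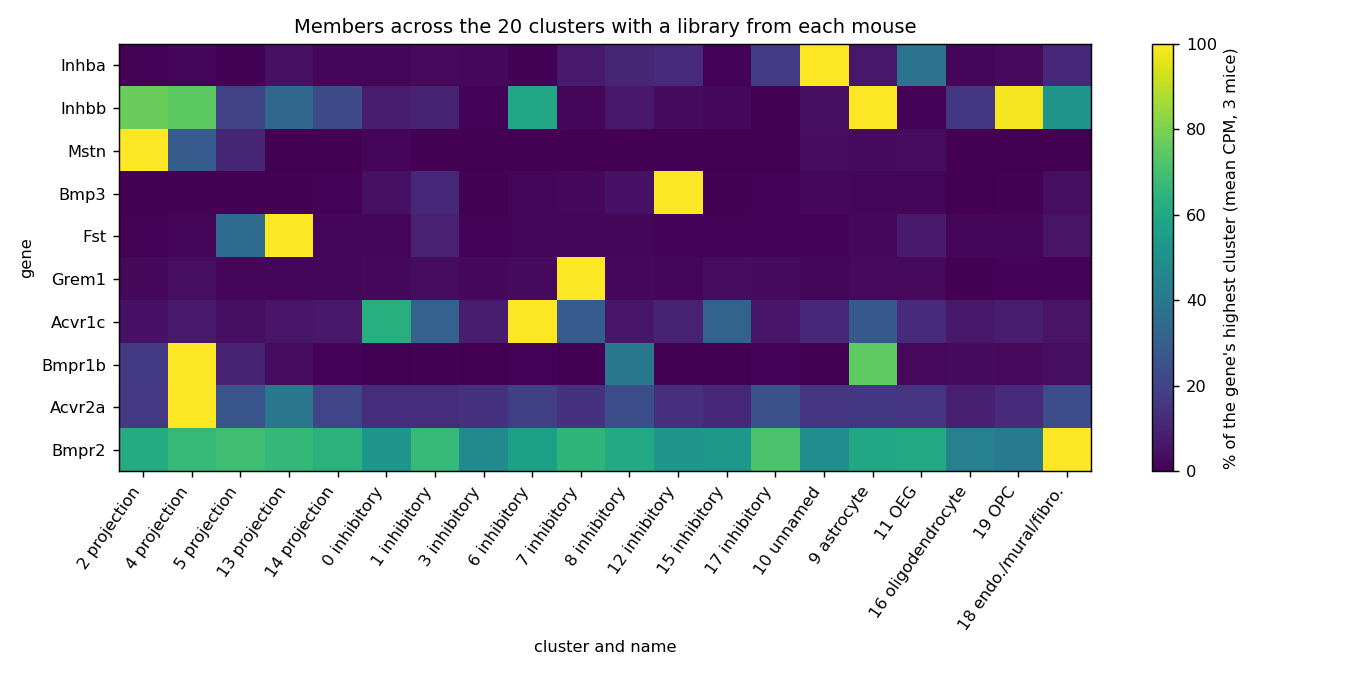
Mean CPM over mice of each gene (rows) in the 20 clusters with a library from each mouse (columns), as a percent of the gene's highest cluster. Grem1 and Bmp3 have 1 bright cell each (clusters 7 and 12), Bmpr1b is bright in clusters 4 and 9, and Bmpr2 has no dark cell; the bright cell of Fst in cluster 13 rests on mouse 1 (691 CPM).

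Inhba codes for the beta A subunit, whose dimer is activin A. The gene is on chromosome 13 (16011851 to 16031621, plus strand, GRCm38). In cluster 10 its level was 401, 319 and 375 CPM, a mean of 365 ± 42.0. The olfactory ensheathing glia-like cluster 11 was next with 172, 102 and 144 CPM, followed by the inhibitory-like cluster 17 with 73.1, 41.6 and 77.1 CPM. These 3 clusters did not overlap with each other, while clusters 17 and 12 (49.2, 32.8 and 52.7 CPM) did. In nuclei thinned to 3000 UMIs each, Inhba was found in 53.9% of cluster 10 (95% exact interval 50.8 to 57.1), 26.2% of cluster 11, 3.30% of microglia-like and 1.92% of oligodendrocyte-like nuclei. Without thinning the shares of the first 2 were 70.8% and 38.5%. Cluster 10 has no type name here: it carried 5 of 7 inhibitory markers, but Gad1, which codes for the enzyme that makes GABA, was at 318 CPM there and at 247 CPM in astrocyte-like nuclei. Its leading genes were Klhl1, Slc12a8, Pde3a, Ndnf and Plpp4. In cluster 18, which carried markers of endothelial and of mural or fibroblast cells, Inhba reached 100 CPM in mouse 3 against 17.9 and 5.52, and 16 of the 21 UMIs behind that value were in 1 nucleus.

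Inhbb codes for the beta B subunit of activin B, and its order among cell types was another. The gene is on chromosome 1 (119415465 to 119422248, minus strand). It gave 759 UMIs in all, which limits every value. ET4-like nuclei had 15.9, 10.6 and 12.6 CPM and T1-like nuclei 7.48, 5.78 and 6.15 CPM, so that the libraries did not overlap and the means differed 2.02 times. The ratio was 1.94 without mouse 1, 1.70 with TMM factors (another scaling of libraries) and 1.98 without nuclei that held UMIs of both a glutamate transporter gene and Gad1 or Gad2, all under the rule of 2. Outside projection neurons Inhbb was at 9.46, 6.89 and 6.80 CPM in astrocyte-like nuclei and 4.40, 3.96 and 5.52 CPM in inhibitory-like cluster 6. The oligodendrocyte precursor-like values of 9.38, 13.5 and 0 CPM rest on few UMIs. At 3000 UMIs per nucleus Inhbb was found in 4.43% of ET4-like (3.17 to 6.01) and 0.38% of oligodendrocyte-like nuclei, and in 9.63% of ET4-like nuclei without thinning.

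Mstn codes for myostatin, known for limiting the growth of skeletal muscle. From this gene of chromosome 1 (53061640 to 53068079, plus strand), 118 UMIs in 80 nuclei were found. T1-like nuclei held 75 of them, at 1.75, 2.36 and 1.92 CPM. M3-like nuclei held 4, at 0, 1.77 and 3.22 CPM, and their mean was above that of T1-like nuclei without mouse 1 or with nuclei holding UMIs of both a glutamate transporter gene and Gad1 or Gad2 left out. Projection neuron-like clusters together held 114 UMIs and inhibitory-like clusters 1, a pooled ratio of 159 with a 95% counting interval of 27.9 to 6329. After thinning, 11 of 2117 T1-like nuclei (0.52%, 0.26 to 0.93) held a Mstn UMI, so that few nuclei carry the value. ET4-like, M1-like and ET2-like nuclei had none. The small unnamed subcluster 8 had 8.83 CPM in mouse 1 from 3 UMIs and none in mice 2 and 3.

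Bmp3 codes for an atypical BMP that opposes activin and other BMPs. Bmp3 lies on chromosome 5 (98854415 to 98884396, plus strand). Cluster 12, inhibitory-like with Kcnt2, Bmp3 and Atp10a in front, had 103, 68.6 and 57.4 CPM. The next cluster was inhibitory-like cluster 1 with 11.3, 6.09 and 8.62 CPM, and the means differed 8.81 times with no overlap. Thinned nuclei with a Bmp3 UMI were 18.2% of cluster 12 (15.6 to 21.1), 1.10% of microglia-like and 0% (0 of 261, which allows up to 1.15%) of oligodendrocyte-like nuclei. Unthinned, the share in cluster 12 was 31.5%.

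**Figure D2:**
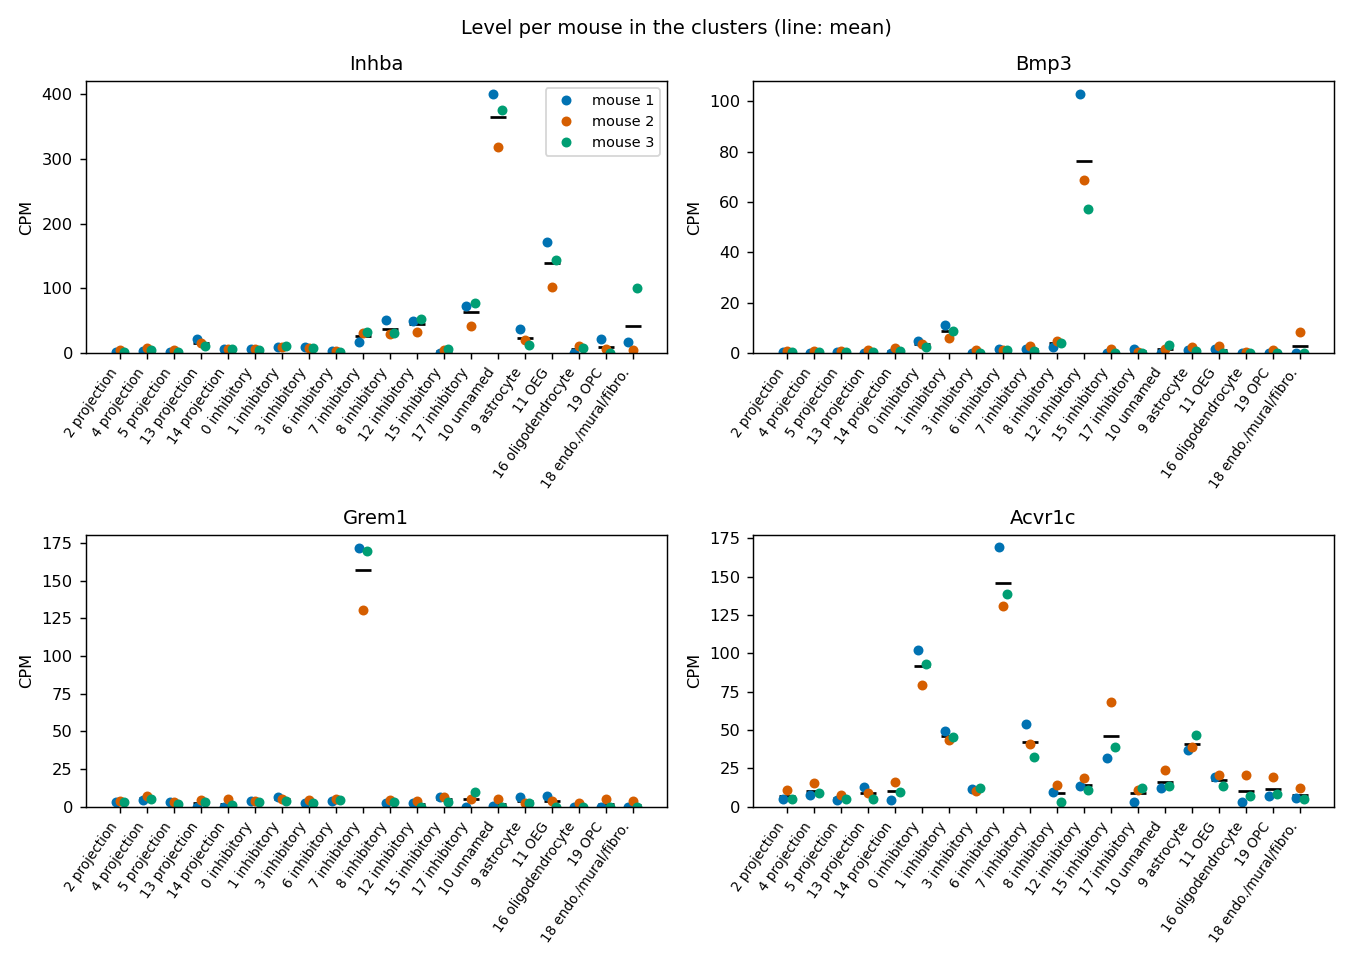
CPM of Inhba, Bmp3, Grem1 and Acvr1c in each cluster, 1 point per mouse. Inhba stands at 319 to 401 in cluster 10 and 102 to 172 in cluster 11, Grem1 at 130 to 172 in cluster 7, Bmp3 at 57.4 to 103 in cluster 12, and Acvr1c is highest in cluster 6 with cluster 0 below it.

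Of the antagonists, Fst codes for follistatin, which binds activins and myostatin. It is on chromosome 13 (114452290 to 114458951, minus strand). M3-like nuclei had 1000, 672 and 715 CPM, a mean of 796 ± 178. M1-like nuclei had 396, 144 and 87.1 CPM and M2-like nuclei 49.2, 60.0 and 72.7 CPM. All 3 M3-like libraries lay above the M1-like ones, and the M1-like libraries above those of M2-like nuclei. The 396 CPM came from 64 UMIs in the 14 M1-like nuclei of mouse 1, 7 of which had no Fst UMI. Without them the M1-like mean was 116 CPM, and M3-like nuclei were 6.87 times as high, against 3.80 times with them. Without nuclei holding both kinds of UMIs, as for Inhbb, the ratio was 5.89. When single nuclei were weighted equally, M1-like nuclei of mouse 1 had 507 CPM and overlapped with the lowest M3-like library (468 CPM).

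In tufted-like types the mean of Fst went from 2.82 ± 0.88 CPM in T1-like to 7.72 ± 4.63 CPM in ET4-like nuclei. Among clusters, 13 had 691, 143 and 85.7 CPM and 5 had 90.7, 113 and 119 CPM, which overlap. In cluster 13, 7 of 23 nuclei of mouse 1 were M3-like, against 1 of 478 and 0 of 209 in mice 2 and 3. Cluster 5 held 1122 of the 1149 M2-like and 223 of the 326 M3-like nuclei. The inhibitory-like cluster 1 had 33.5, 23.0 and 26.8 CPM, and ensheathing glia-like nuclei had 5.99, 27.2 and 33.2 CPM. Nuclei of M3-like were shallower than those of M1-like (median 5915 against 18005 UMIs). At 3000 UMIs per nucleus, with 68 shallower M3-like nuclei left out, Fst was found in 78.0%, 61.3% and 45.3% of M3-like nuclei of mice 1, 2 and 3. Over all mice the share was 60.5% (54.2 to 66.5) in M3-like, 22.9% in M1-like, 15.4% in M2-like, 0.99% in T1-like, 1.10% in microglia-like and 0.77% in oligodendrocyte-like nuclei, and without thinning it was 56.1%, 35.3% and 38.0% in the first 3. The T1-like share was near those of the glia, whose clusters are small (146 microglia-like and 282 oligodendrocyte-like nuclei before thinning).

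Grem1 codes for gremlin, a secreted BMP antagonist. Grem1 lies on chromosome 2 (113746164 to 113758646, minus strand). Cluster 7, inhibitory-like with Grem1, Pde5a, Calb2 and Egf among its leading genes, had 172, 130 and 170 CPM. The next was projection neuron-like cluster 4 with 4.60, 7.32 and 5.49 CPM, a ratio of means of 27.1. Means of the other clusters with a library from each mouse went from 0.80 to 5.36 CPM, glia included. Thinned shares were 25.7% in cluster 7 (23.2 to 28.3; 31.7% unthinned), 2.20% in microglia-like and 0.38% in oligodendrocyte-like nuclei. All 9 Grem1 UMIs of the microglia-like nuclei of mouse 1 were in 1 nucleus.

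**Figure D3:**
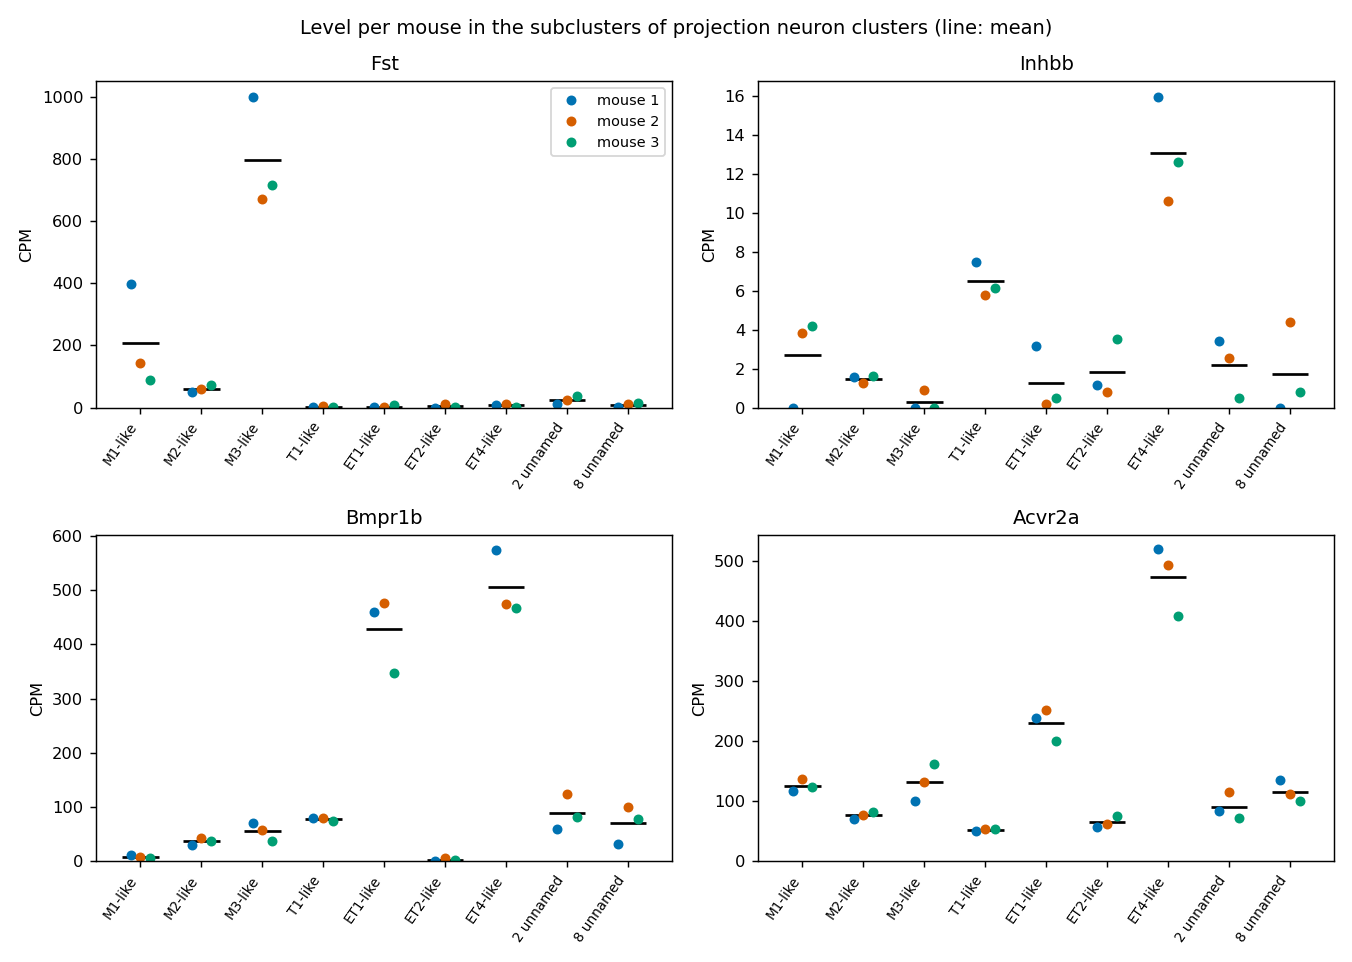
CPM of Fst, Inhbb, Bmpr1b and Acvr2a in each subcluster of projection neurons, 1 point per mouse. Fst is highest in M3-like nuclei (672 to 1000), with 1 high M1-like point of mouse 1, and Bmpr1b and Acvr2a stand highest in ET4-like and ET1-like nuclei.

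Acvr1c codes for a type I receptor of activin B and Nodal. It is on chromosome 2 (58267453 to 58357895, minus strand). It was highest in 2 inhibitory-like clusters, cluster 6 with 169, 131 and 138 CPM and cluster 0 with 102, 79.1 and 93.2 CPM. Their libraries did not overlap, but the ratio of means, 1.60, was below 2. Cluster 6 also carried all 5 markers of dopaminergic periglomerular cells. Clusters 15 (31.5, 68.3 and 38.9), 1 (49.6, 43.5 and 45.3), 7 (54.0, 40.8 and 32.2) and astrocyte-like 9 (36.8, 38.7 and 46.8 CPM) followed and overlapped with each other. Projection neuron-like clusters were at 5.83 to 10.6 CPM. Thinned shares were 30.1% in cluster 6 (27.7 to 32.6), 18.8% in cluster 0, 3.30% in microglia-like and 1.92% in oligodendrocyte-like nuclei; cluster 6 had 56.1% unthinned.

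Bmpr1b codes for a type I receptor of BMPs and related growth factors. Its locus is on chromosome 3 (141837136 to 142169425, minus strand). Levels were 573, 475 and 467 CPM in ET4-like and 460, 477 and 348 CPM in ET1-like nuclei, which overlap, and 79.5, 79.7 and 74.3 CPM in T1-like nuclei. ET2-like and M1-like nuclei were low, at 1.16 to 6.71 and 5.38 to 12.4 CPM. Astrocyte-like nuclei had 322, 210 and 390 CPM and overlapped with cluster 4 (473, 415 and 338 CPM), where the ET4-like and most ET1-like nuclei lie. At equal depth Bmpr1b was found in 65.8% of ET4-like (62.6 to 68.9), 64.4% of ET1-like, 44.4% of astrocyte-like, 6.59% of microglia-like and 1.53% of oligodendrocyte-like nuclei. The unthinned shares were 87.0% in ET4-like and 89.3% in ET1-like nuclei.

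Among inhibitory-like clusters Bmpr1b was high in cluster 8 alone, with 137, 28.5 and 328 CPM, and the other 8 were at 0.17 to 4.65 CPM. Within cluster 8 the counts were uneven: 1261 of 1356 nuclei had no Bmpr1b UMI and 72 had 5 or more (12, 12 and 48 by mouse). The nuclei with 5 or more had a median of 24501 UMIs, 51.0 CPM of Foxp2, 77.0 CPM of Gad1 (50.3, 235 and 48.4 by mouse) and 168 CPM of Slc17a7, the gene of a glutamate transporter of synaptic vesicles. Their Foxp2 was at 0, 101 and 51.3 CPM by mouse. Nuclei with none had a median of 7017 UMIs, 2021 CPM of Foxp2, 699 CPM of Gad1 and 27.4 CPM of Slc17a7. The other 6 markers of projection neurons were uneven between the former and the latter. Slc17a6 was at 31.6 and 5.91 CPM, Tbr1 at 19.4 and 2.09, Tbx21 at 5.61 and 1.91 and Thy1 at 87.7 and 61.6 CPM. Cdhr1 was at 24.0 and 22.9 CPM (265 to 423 CPM in projection neuron-like clusters) and Eomes at 11.7 and 9.64 CPM. These values are pooled over mice. In mouse 1 the former were lower in Thy1 (47.0 against 67.9 CPM), Cdhr1 (10.1 against 14.4), Tbx21 (0 against 3.01) and Eomes (0 against 6.01). In mice 2 and 3 they were higher in all of these, and in Slc17a6 and Tbr1 they were higher in each mouse. Pooled over mice, Acvr2a was at 122 and 58.6 CPM. The 72 nuclei were chosen by their Bmpr1b count, which favours deep nuclei, and get no type name. Whether doublets had a part was not tested.

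**Figure D4:**
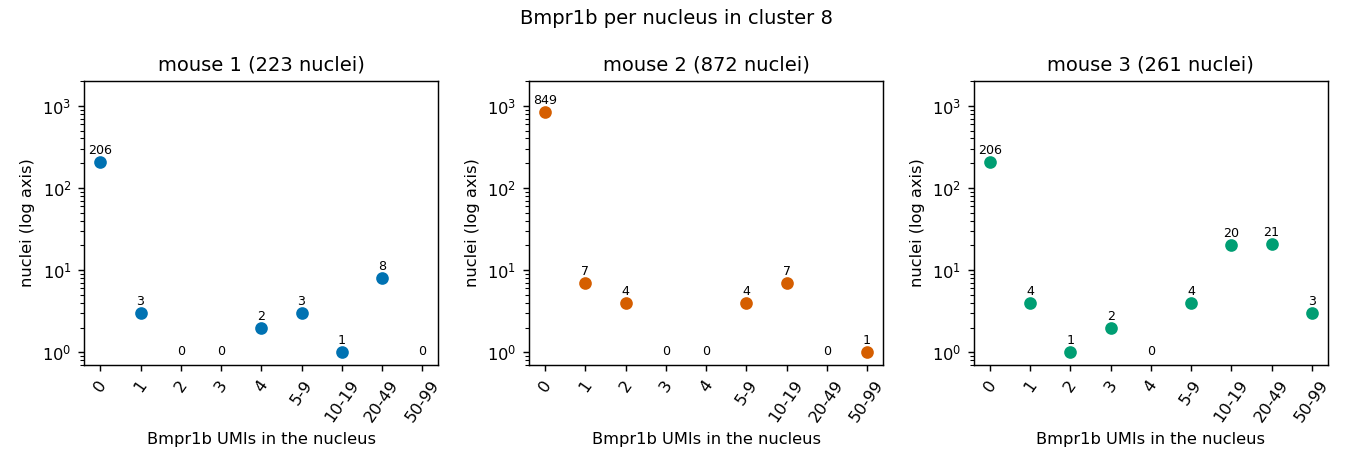
Number of nuclei of cluster 8 (log axis) by their Bmpr1b UMIs, 1 colour per mouse. Most nuclei hold 0 UMIs (206, 849 and 206 in mice 1, 2 and 3), and 12, 12 and 48 nuclei hold 5 or more.

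Acvr2a codes for a type II receptor of activins and myostatin. It is on chromosome 2 (48814109 to 48903269, plus strand). The order of its levels began with ET4-like nuclei (520, 494 and 409 CPM) and ET1-like nuclei (239, 253 and 200 CPM), which did not overlap and differed 2.06 times (1.99 without mouse 1, 1.84 with TMM factors and 1.97 as the mean over single nuclei). M3-like nuclei (99.9, 132 and 163 CPM) and M1-like nuclei (118, 136 and 123 CPM) came next and overlapped, and T1-like nuclei had 50.1, 53.1 and 53.3 CPM. Among clusters, 4 (360, 325 and 249 CPM) was 2.53 times as high as 13 (115, 135 and 120 CPM). Its lowest mean was 27.2 CPM, in oligodendrocyte-like nuclei. Thinned shares were 72.3% in ET4-like (69.2 to 75.2; 93.5% unthinned), 43.3% in ET1-like (83.2% unthinned), 12.1% in microglia-like and 5.75% in oligodendrocyte-like nuclei. Orc4, on the opposite strand, overlaps with Acvr2a and had 33911 UMIs. Antisense genes overlap with Fst, Inhba and Acvr1c (Gm47040, Gm48444 and Gm13544, with 66, 256 and 472 UMIs).

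Bmpr2 codes for the type II receptor of BMPs. It lies on chromosome 1 (59763400 to 59879014, plus strand), and its cluster means lay closer together than those above. The endothelial- and mural-or-fibroblast-like cluster 18 was highest with 256, 177 and 186 CPM, and the other clusters with a library from each mouse had means of 86.0 to 148 CPM. With TMM factors in place of total UMIs, projection neuron-like cluster 5 was the highest. At equal depth 36.3% of microglia-like and 18.4% of oligodendrocyte-like nuclei held a Bmpr2 UMI.

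The 250 bases before a transcript's start were read from RefSeq (GRCm38.p6) for 4 genes, to show the promoters of genes led by 1 cluster (Inhba, Grem1) and of the receptors high in ET4-like and ET1-like nuclei (Bmpr1b, Acvr2a). Capitals mark the letters CAGAC or, for the other strand, GTCTG, letters known to be bound by Smad proteins; the 2 words do not overlap with another motif searched. Of 32536 distinct windows of this length, 42.2% hold such a word and 11.6% at least 2. The table held 8 of the 10 genes (not Fst and Bmp3), and Bmpr1b has 3 windows, of which 1 is shown. That window lies within the Bmpr1b locus as given above and not before its outermost start.
Inhba, chr13:16011601-16011850, plus strand: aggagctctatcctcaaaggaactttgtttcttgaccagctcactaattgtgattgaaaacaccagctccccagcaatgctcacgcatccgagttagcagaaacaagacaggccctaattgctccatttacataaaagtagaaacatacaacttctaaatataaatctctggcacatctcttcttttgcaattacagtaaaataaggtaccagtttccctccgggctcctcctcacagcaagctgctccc
Grem1, chr2:113758649-113758898, minus strand: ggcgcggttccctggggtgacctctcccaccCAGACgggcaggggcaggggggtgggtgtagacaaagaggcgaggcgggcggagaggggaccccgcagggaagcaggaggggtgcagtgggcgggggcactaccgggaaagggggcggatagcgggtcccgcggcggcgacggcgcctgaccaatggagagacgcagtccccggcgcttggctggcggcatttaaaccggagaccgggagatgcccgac
Bmpr1b, chr3:141982265-141982514, minus strand: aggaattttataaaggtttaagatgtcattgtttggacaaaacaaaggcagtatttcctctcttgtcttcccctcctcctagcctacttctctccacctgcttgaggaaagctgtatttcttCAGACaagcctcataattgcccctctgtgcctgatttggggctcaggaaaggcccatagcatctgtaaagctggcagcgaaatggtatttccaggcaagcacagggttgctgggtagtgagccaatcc
Acvr2a, chr2:48813859-48814108, plus strand: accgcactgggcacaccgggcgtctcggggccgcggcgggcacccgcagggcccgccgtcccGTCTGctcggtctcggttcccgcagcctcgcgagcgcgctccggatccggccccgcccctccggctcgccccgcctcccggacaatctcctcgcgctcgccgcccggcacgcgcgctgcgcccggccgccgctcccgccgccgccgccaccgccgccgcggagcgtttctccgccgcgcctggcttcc
The Grem1, Bmpr1b and Acvr2a windows shown hold 1 such word each and the Inhba window 0. Of the other two Bmpr1b windows, 1 holds 1 word and 1 holds none. A word is a description of these letters. The share of windows that hold it is so high that it does not set these genes apart. G and C made up 43.2% of the Inhba and 82.0% of the Acvr2a window, against a median of 52.4%.

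Summed over clusters, 4 of the 9 genes tested were higher in projection neuron-like than in inhibitory-like nuclei (Fst, Inhbb, Bmpr1b and Acvr2a) and 4 were lower (Grem1, Inhba, Bmp3 and Acvr1c), where all 3 libraries of one class lay above those of the other and the means differed at least 2 times. Of all genes, 12.6% were higher and 14.1% lower. The type II receptor Acvr2a had 124, 138 and 103 CPM in projection neuron-like against 44.7, 42.8 and 52.8 CPM in inhibitory-like nuclei, a log2 ratio of 1.37 ± 0.37. For its ligand gene Inhba the levels were 2.56, 6.54 and 4.16 against 13.1, 11.1 and 13.5 CPM, a log2 ratio of -1.58 ± 0.79, and -2.63 with cluster 10 counted as inhibitory. Inhbb had the opposite sign, with 5.08, 3.71 and 3.85 against 0.98, 0.86 and 0.84 CPM and a log2 ratio of 2.11 ± 0.14.

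For Fst the log2 ratio was 2.26 ± 0.22, for Grem1 -1.51 ± 0.39, for Bmp3 -3.34 ± 0.66 and for Acvr1c -3.05 ± 0.71. Bmpr1b differed most between mice: its log2 ratios were 3.63, 5.30 and 0.97 in mice 1, 2 and 3. Inhibitory-like nuclei had 19.5 ± 21.6 CPM of Bmpr1b, lowest in mouse 2 (3.46) and highest in mouse 3 (44.1) as in cluster 8, and without cluster 8 the mean log2 ratio rose from 3.30 to 5.93. Bmpr2 had 143, 133 and 132 against 118, 111 and 124 CPM, a log2 ratio of 0.20 ± 0.10 with no overlap but under 2 times.

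**Figure D5:**
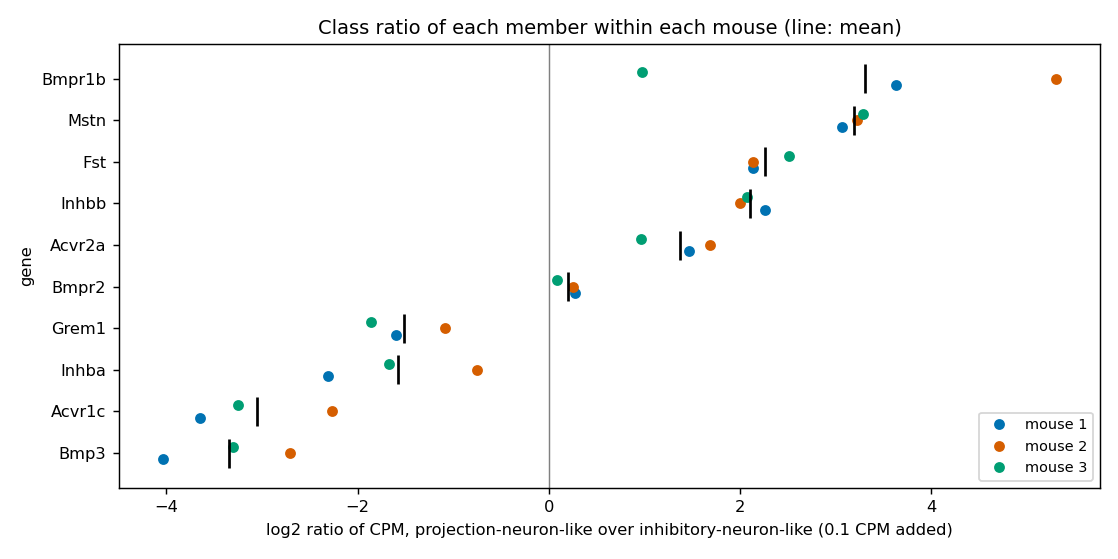
Log2 ratio of CPM (0.1 CPM added) in projection neuron-like over inhibitory-like nuclei for each gene, 1 point per mouse. The 3 points of Fst, Inhbb, Bmpr1b and Acvr2a lie above 0, those of Grem1, Inhba, Bmp3 and Acvr1c below it, and the points of Bmpr1b spread from 0.97 to 5.30.

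Mitral-like (M1, M2 and M3) and tufted-like (T1, ET1, ET2 and ET4) types were compared with each type weighted equally. Fst was the 1 gene of 8 tested with no overlap, with a log2 ratio within mice of 6.39 ± 1.05 (n = 3). Its lowest mitral-like library (49.2 CPM, M2-like) lay above every tufted-like library of the same 3 mice. Of all genes, 0.379% were higher in mitral-like and 0.15% in tufted-like types by this rule. Bmpr1b was lower in mitral-like types on average (log2 ratio -2.93 ± 0.12), but the low ET2-like libraries made the sides overlap. Acvr2a (-0.89 ± 0.29), Inhbb (-2.04 ± 1.30) and Inhba (1.33 ± 0.87) overlapped too. Bmpr2 differed by 0.09 ± 0.01 on the log2 scale.

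At 25% of the level in the highest of all clusters, unnamed subclusters 2 and 9 carried 2 and 6 of the 7 inhibitory markers, and subcluster 9 all 5 markers of dopaminergic periglomerular cells. The 7 named types carried no inhibitory marker, and no subcluster carried a marker of astrocytes, ensheathing glia, oligodendrocytes or microglia. M1-like nuclei carried 1 of 7 markers of oligodendrocyte precursors. Against the highest subcluster in place of the highest cluster, unnamed subcluster 8 reached 25% for 7 of 8 astrocyte markers, and Slc1a3 and Gpc5 were among its leading genes. On that scale subcluster 9 reached 8 of 8 ensheathing glia, 7 of 7 oligodendrocyte and 7 of 7 microglia markers. ET2-like nuclei reached 7 of 7 oligodendrocyte, 7 of 7 microglia and 5 of 7 inhibitory markers. M3-like and ET4-like nuclei reached 7 of 7 oligodendrocyte markers. In subclusters 2 and 9 Acvr1c was at 18.3 CPM (a mean over mice) and 62.6 CPM (the 1 library used), against 3.82 to 8.71 CPM in the named types, and Bmpr1b at 88.4 and 123 CPM. Of all nuclei, 25.9% held at least 1 UMI of both a glutamate transporter gene (Slc17a7 or Slc17a6) and Gad1 or Gad2. Gad1 was at 247 CPM in astrocyte-like and 178 CPM in oligodendrocyte-like nuclei, so that this share is not read as a share of mixed nuclei. With such nuclei left out, Acvr1c was at 26.8 CPM in subcluster 2.

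Ligands and their partners were then looked for in the same thinned nuclei. Bmpr1b and Acvr2a were both found in 47.4% of ET4-like nuclei, where the product of their shares was 47.6%, so that the genes of the type I and the type II receptor met about as often as the product gives. Inhba and its receptor gene Acvr2a were both found in 55 of 996 nuclei of cluster 10, 5.52% against a product of 5.47%. Inhba and Fst, ligand and antagonist, met in 5 of 258 M3-like nuclei (1.94% against 1.41%), in 11 of 681 M1-like nuclei (1.62% against 0.98%) and in 7 nuclei of cluster 10 (0.70% against 0.87%, all from mouse 2). Without thinning they met in 18 of 326 M3-like nuclei (5.52% against 3.44%), 47 of 686 M1-like nuclei (6.85% against 6.33%) and 26 of 1047 nuclei of cluster 10 (2.48% against 2.57%). Bmp3 with Grem1, Bmp3 with Bmpr1b, and Inhbb with Acvr1c met in 0 to 4 thinned nuclei of a cluster or subcluster. The 4 were of Bmp3 and Grem1 in cluster 7 (0.34% of 1173 nuclei against a product of 0.15%), all from mouse 2. In unthinned nuclei these genes met in 7 of 1401 nuclei of cluster 7 (0.50% against 0.32%) and in 5 of 807 of cluster 12 (0.62% against 0.66%), again all from mouse 2. Inhbb and Acvr1c met in 24 of 1411 unthinned nuclei of cluster 6 (1.70% against 1.75%) and in 5 of 883 ET4-like nuclei (0.57% against 0.80%, all from mouse 2). Bmp3 and Bmpr1b met in 11 of 2015 unthinned nuclei of cluster 4 (0.55% against 0.59%), in 13 of 943 of subcluster 2 (1.38% against 1.60%) and in 1 of 807 of cluster 12. Inhbb and Acvr2a, a pair added after the data were seen, met in 23 of 880 thinned ET4-like nuclei (2.61% against 3.20%) and in 3 of 975 of astrocyte-like cluster 9 (0.31% against 0.22%), all from mouse 2. Of the 17 among 1136 unthinned nuclei of that cluster, 15 were from mouse 2.

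Across the 20 clusters the Pearson correlation of log2(mean CPM + 1) was highest for Bmpr1b with Inhbb (0.63) and with Acvr2a (0.58) among the 45 pairs, and lowest for Inhba with Inhbb (-0.41). The clusters share libraries and differ in depth, so these are descriptions. Of 12363 genes with at least 5 CPM, those most like each member were Mylk (0.89), Aqr and Rnd3 for Inhba, Irf2 (0.84), Pepd and Parn for Inhbb, Rhbdd1 (0.88), Olfr114 and Furin for Mstn, and Grm4 (0.79), Gabra5 and Atp10a for Bmp3. For the antagonists they were Kcng1 (0.81), Dcaf13 and Gm12002 for Fst and Fam124a (0.83), Cfap61 and Egf for Grem1. For the receptors they were Sall3 (0.86), Amigo2 and 4930563F08Rik for Acvr1c, Tbc1d1 (0.81), Sv2b and 4831440E17Rik for Bmpr1b, Trpc7 (0.89), Mrap2 and Cdhr3 for Acvr2a, and Tmem87b (0.85), Fam45a and Baiap2l1 for Bmpr2.

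Of 82 other genes of the pathway, 13 of 57 tested (22.8%) were led by a cluster, against 9.65% of all genes. The endothelial- and mural-or-fibroblast-like cluster 18, which led 2.34% of all genes, led 6 of them, among which Bmp6 (a BMP ligand) had 675 ± 91.6 CPM against 246 in the next cluster, Nbl1 (a BMP antagonist) 234 ± 87.0 against 13.8, and Acvrl1 (an endothelial type I receptor) 60.8 ± 42.1 against 3.38. The others of that cluster were Tgfbr3, Smad6 and Id1. Astrocyte-like cluster 9 (1.14% of all genes) led Chrdl1 (92.8 ± 18.7 against 6.58 CPM), a BMP antagonist, as well as Bmpr1a (420 ± 103 against 191 CPM), another type I receptor of BMPs, and Id4. Bmp2 was led by inhibitory-like cluster 6 (17.4 ± 2.27 against 8.54 CPM), which was also the highest for Acvr1c and led 0.203% of all genes. For Bmp2 and Acvrl1 the next cluster was microglia-like cluster 20, with 2 libraries. Smad7 was led by oligodendrocyte-like nuclei (1.56% of all genes) and Pmepa1 by ensheathing glia-like nuclei (1.36%).

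Among subclusters 3 of 48 genes tested (6.25%) were led, near the 4.7% of all genes. Tgfb2 was at 35.2 ± 2.56 CPM in M3-like nuclei, where Fst was highest, against 11.9 in the 1 library used of unnamed subcluster 9. Tgfb3 (32.7 ± 1.23 against 11.6 CPM) and Ctgf (339 ± 129 against 124 CPM), a target gene of the pathway, were led by ET4-like nuclei, which also led Inhbb and Acvr2a.

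Between projection neuron-like and inhibitory-like nuclei, 12 of 50 listed genes (24.0%) were higher and 16 (32.0%) lower, against 12.6% and 14.1% of all genes, and their median log2 ratio was -0.24 against -0.09 for all. Of 10 antagonists tested, 6 were lower in projection neuron-like nuclei (Fstl1, Nog, Chrd, Nbl1, Bmper and Bambi), and the median over the 10 was -1.53. Noggin (Nog), a BMP antagonist, had 3.69 ± 1.08 against 13.0 ± 3.14 CPM, and Bambi, a decoy receptor, 5.22 ± 2.28 against 25.9 ± 3.57 CPM. Of the BMP ligands, Gdf10 (8.11 ± 1.81 against 0.90 ± 0.33 CPM) and Bmp6 were higher in projection neuron-like nuclei and Bmp2 lower. Among 11 receptors and co-receptors 4 were higher (Tgfbr1, Tgfbr3, Amhr2 and Rgma) and 1 lower (Rgmb), with a median of 0.17. Smad1, Smad7 and Smad9 were higher and Smad3 and Ski lower among 11 Smads and regulators. Of the 8 target genes, Id2 and Ctgf were higher and Id1, Id3, Gadd45b and Junb lower. Of the 5 TGF-beta, activin and GDF ligands tested, Tgfb2 and Gdf9 were lower. Inha, which codes for the alpha subunit of inhibins, was at 21.7 ± 1.14 against 14.4 ± 0.61 CPM, with no overlap but under 2 times, and so was Gdf11 (19.3 ± 4.93 against 10.8 ± 2.30 CPM). Between mitral-like and tufted-like types 0 of 47 listed genes passed the rule in either direction, where 0.379% and 0.15% of all genes did; their median was -0.17 against -0.04 for all.

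The other genes named for their level differed by less than 2 times between the classes. Acvr1, a type I receptor, had 104 ± 10.1 against 199 ± 23.0 CPM, and Bmpr1a 121 ± 2.72 against 108 ± 3.28 CPM. Smad4, the Smad common to both branches, had 49.5 ± 2.95 against 59.7 ± 3.61 CPM and Smurf2, which marks Smads for breakdown, 90.7 ± 4.17 against 75.2 ± 6.08 CPM. Twsg1 had 10.5 ± 0.90 against 8.50 ± 2.44 CPM and was the gene of these whose classes overlapped.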

How the data were processed

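Nuclear RNA of 3 olfactory bulbs was counted by droplet sequencing (Chromium Single Cell 3′ v3). The deposited counts are whole UMIs for each barcode, not normalized. The authors ran Cell Ranger on mm10/GRCm38, and the matrix headers name version 3.0.2. Whether introns were counted is not given in the sources used here. The sort had a scatter gate for doublets, and no further removal was run here. The authors kept nuclei by genes and by the deposited percent of mitochondrial UMIs (lowest 1001 genes, highest 4.58% here), merged mice and clustered in Seurat. The table's 6 other numeric columns were not used.

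Counts were summed per mouse and cluster or subcluster as CPM (Python 3.11.15, NumPy 2.4.6, pandas 2.3.3). Libraries had at least 10 nuclei and 100000 UMIs. A marker counted at 25% of its highest cluster (for types, 50% of its highest subcluster), and a name needed 3 markers; those of the projection neuron types were picked by the study on these samples. An inhibitory name needed Gad1 at 1.5 times the highest astrocyte-, ensheathing glia-, oligodendrocyte- or precursor-like cluster, a rule added after the levels were seen. Microglia-like cluster 20 (315 CPM, 2 libraries) was not counted in it; with it, cluster 17 (453 CPM) would have no name. Log2 ratios were taken within mice with 0.1 CPM added. The fold rule for calls was 2. Shares have exact (Clopper-Pearson) 95% intervals, which cover counting error only; a count of 0 was given the limit of 3 counts. Named were all 10 members, the 3 genes most like each, up to 5 led genes per pathway list by ratio to the next cluster, the 2 of each list with the highest level, and the genes behind each count; 1 gene that the rule named is not reported here. The members and lists were chosen with earlier results of these data known. Clusters were formed on the same counts, so no test was run. The calling code was tested on simulated data. Alternatives were TMM factors (edgeR 4.0.16, R 4.3.3), equal weight of nuclei, nuclei with both a glutamate transporter gene and Gad1 or Gad2 left out, other filters and folds, and each mouse left out. Other cluster classes, M1-like nuclei of mouse 1 left out, and the receptor pairs of Acvr2a with Bmpr1b and Inhbb were added after seeing the data.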

Additional observations from a re-analysis of the deposited data

How the results depend on the processing

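Which genes were led by a subcluster depended on the processing more than which were led by a cluster. The 3 members led by a subcluster became 1 with TMM factors (Fst), 1 with the mean over single nuclei (Inhbb), and 1 to 3 with a mouse left out (1, Fst, without mouse 1). The ratio of ET4-like nuclei to the next was near 2 for Inhbb (1.70 to 2.39) and Acvr2a (1.84 to 2.12). Members led by a cluster numbered 4 to 5 under every alternative run. Of all genes, 5.95% were led by a cluster and 2.75% by a subcluster with no filter on mean CPM, and 8.21% by a subcluster at 1.5-fold. Without mouse 1, Fst was at 114 CPM in cluster 13, against 306 CPM with all nuclei, and cluster 5 was then the highest. Leaving out only the 14 M1-like nuclei of mouse 1 gave the same value by construction. The 7 M3-like and 2 M2-like nuclei that remained of mouse 1 in cluster 13 were below the minimum of 10 nuclei, so its library was dropped. That setting therefore does not show which nuclei of mouse 1 carry the value. TMM factors shifted the median log2 ratio of all genes by 0.06 between the classes. Of the log2 ratios between the classes under the alternatives, 120 moved by less than 1 SD over mice, among them all 10 without cluster 17, and 10 by more. Leaving out nuclei with both a glutamate transporter gene and Gad1 or Gad2 moved 4 of the 10 members by more (Fst, Bmp3 to -4.31, Inhbb to 2.24 and Mstn to 2.81), and the mean over single nuclei moved 4 (Fst to 2.68, Grem1 to -1.96, Inhbb to 2.26 and Mstn to 3.36), with no change of sign. Depth limits Mstn (118 UMIs) and Inhbb (759 UMIs) most. No paired analysis was possible between groups of mice because they form 1 group; the ratios within mice are given with no test.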
